A study of Mus musculus with 3 samples.

Results

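The 38 genes described here are interferon response genes, chosen by their symbols as genes of the pathway, with earlier results of these data known, out of 28692 genes counted. Their baseline levels were read across the cells of whole lung from 3 wild-type (WT) C57BL/6 mice that breathed room air (RA) from day 1 to day 14 after birth and were taken at P14. No infection, interferon, transgene or deletion was part of these samples, and all 3 mice belong to 1 condition, so the comparisons are between cell classes and cell types of the same lungs. Transcripts of single cells were counted by scRNA-Seq with unique molecular identifiers (UMIs), tags that let copies of the same captured molecule be counted once.

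The files held 3034, 3135, and 3475 cells of mice 2, 3, and 4, of which 2386, 2601, and 2655 were kept, with 66547233 UMIs in all and a median of 6033.5 UMIs per kept cell. Clusters were named from marker genes, in a clustering that did not use the 38 genes or the other genes of the pathway, which gave 959 endothelial cells (ECs), 1307 epithelial cells, 3014 immune cells, and 1538 stromal cells, and 824 cells without a name. Of these classes, 19 types had at least 10 cells in every mouse. Some names cover mixed clusters. The venous-like ECs were also led by the lymphatic genes *Ccl21a* and *Mmrn1*, the *Col14a1*-type fibroblasts by the cartilage genes *Col2a1* and *Acan*, and the club-like cells had a median of 740 UMIs. Libraries shared 12 cell barcodes, 8 of them in kept cells. Summed CPM of the 5 immune class markers was 46.0 to 56.8 in ECs, 14.5 to 57.2 in epithelial cells, and 23.6 to 61.3 in stromal cells, against 5993 to 6073 in immune cells. Other class markers crossed more. Those of ECs summed to 187, 181, and 210 CPM in immune cells of mice 2, 3, and 4, against 8685, 8627, and 8466 CPM in ECs. Those of stromal cells summed to 140, 416, and 482 CPM in ECs. Levels are given as CPM, the UMIs of a gene per 1000000 UMIs of a class or type in 1 mouse. Tests treat the mouse as the replicate, with no term for the mouse. For each gene, all classes or all types share 1 estimate of the spread. The p-values thus measure the spread between these 3 mice pooled over classes or types, and not the spread within a single class or type.

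Interferons are secreted proteins that bind receptors on the same or neighboring cells, and cells release type I interferons on sensing viral or microbial nucleic acid. Type I interferons signal through IFNAR1 and IFNAR2 to a complex that contains STAT2 and IRF9 and binds the interferon-stimulated response element (ISRE), whereas interferon gamma signals through IFNGR1 and IFNGR2 to genes with a gamma-activated site (GAS). Many of the genes they induce are also transcribed at a low level without infection, and this tonic level differs between tissues and cell types.

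The stretches of 160 bases before the start site are shown for 6 of the genes on which the comparisons turn, from RefSeq promoters on GRCm38.p6. They are Ifit1 at chr19:34640729-34640888, Ifit3 at chr19:34583369-34583528, Gbp2 at chr3:142620503-142620662, and Oasl2 at chr5:114896774-114896933 on the plus strand, and Isg15 at chr4:156200819-156200978 and Bst2 at chr8:71537473-71537632 on the minus strand, each written 5′ to 3′ along the gene. Capitals mark the ISRE letters, which are GAAA, any 2 bases, and GAAA or, on the other strand, TTTC, any 2 bases, and TTTC.
Ifit1: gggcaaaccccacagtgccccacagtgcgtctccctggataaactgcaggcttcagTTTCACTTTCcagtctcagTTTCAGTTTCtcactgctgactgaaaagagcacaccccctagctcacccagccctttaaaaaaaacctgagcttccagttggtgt
Ifit3: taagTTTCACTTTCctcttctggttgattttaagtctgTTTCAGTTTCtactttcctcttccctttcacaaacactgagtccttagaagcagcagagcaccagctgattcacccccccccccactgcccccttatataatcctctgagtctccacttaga
Isg15: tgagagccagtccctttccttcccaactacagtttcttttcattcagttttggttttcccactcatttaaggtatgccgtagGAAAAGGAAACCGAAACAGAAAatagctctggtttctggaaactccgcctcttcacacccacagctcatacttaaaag
Bst2: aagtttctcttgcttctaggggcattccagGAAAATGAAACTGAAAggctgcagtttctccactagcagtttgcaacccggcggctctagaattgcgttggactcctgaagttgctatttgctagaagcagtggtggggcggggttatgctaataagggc
Gbp2: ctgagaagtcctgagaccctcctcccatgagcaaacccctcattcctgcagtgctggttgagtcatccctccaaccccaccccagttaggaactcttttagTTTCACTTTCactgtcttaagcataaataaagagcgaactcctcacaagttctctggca
Oasl2: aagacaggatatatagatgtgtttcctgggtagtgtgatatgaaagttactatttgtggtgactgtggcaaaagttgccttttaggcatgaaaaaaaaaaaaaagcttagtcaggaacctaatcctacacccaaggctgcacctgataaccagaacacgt
In Ifit1 and Ifit3 the 2 matches lie apart, whereas the 3 matches of Isg15 and the 2 of Bst2 overlap in a run of repeated GAAA blocks. Oasl2 holds none within this stretch or within its 300 bases.

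Of the 38 genes, 32 had a RefSeq promoter of 300 bases, and 15 of these (46.9%) held the ISRE letters on either strand, against 3.99% of all 27025 genes with a promoter. The GAS letters TTCNNNGAA, which read the same on both strands, were found in 13 (40.6%), against 9.55% of all genes. Overlapping matches were counted, the search of both motifs was run on the same windows, and a match describes letters and not binding.

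ECs and immune cells held the higher levels of most interferon response genes. Of the 38 genes, 37 had enough UMIs to be tested, and the other, *Oas1a*, an oligoadenylate synthetase, had 35 UMIs in all. Compared with the mean of the other classes, 30 of the 37 were higher and 4 lower in ECs, with a median log2 fold change of 1.24 (quasi-likelihood test of edgeR, Benjamini-Hochberg adjusted over 14211 genes). Over all genes tested, 29.7% were called higher and 30.1% lower in ECs, with a median of -0.06. In immune cells, 28 genes were higher and 5 lower, with a median of 0.92, against 37.6% and 38.4% of all genes and a median of -0.05, and without mouse 2 or without mouse 4 the lower count was 3. The direction was the opposite in the remaining classes. Each class is part of the mean that the others are compared with, so these lower calls are not independent of the higher calls above. In epithelial cells 5 were higher and 27 lower (34.5% and 36.5% of all genes), and in stromal cells 2 were higher and 28 lower (36.1% and 30.7% of all genes), with medians of -1.14 and -1.54, respectively.

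Each pair of classes was also compared in the same fit, a step chosen after the data had been seen. A gene was taken as highest in a class when it passed the test against each of the other 3. By this measure 16 genes were highest in ECs, 11 in immune cells, *Isg20* in epithelial cells, *Ifit2* in stromal cells, and 8 in no single class, where 10.7%, 23.0%, 16.9%, and 15.1% of all genes were highest in the 4 classes in that order. These are orders of class sums, and B-cell-like cells gave 7723412 of the 13824232 UMIs of the immune class, so single immune types can differ. The lowest class was stromal for 11 genes, epithelial for 8, and EC for *Isg20*, against 5.91%, 10.5%, and 6.86% of all genes. No gene was lowest in immune cells by edgeR, by DESeq2, or at an unadjusted p under 0.05 in each pair (0 in each case), where 18.7% of all genes were. The call of *Isg20* as lowest in ECs was lost without mouse 3 and without mouse 4, which left 0 genes there.

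**Figure D1:**
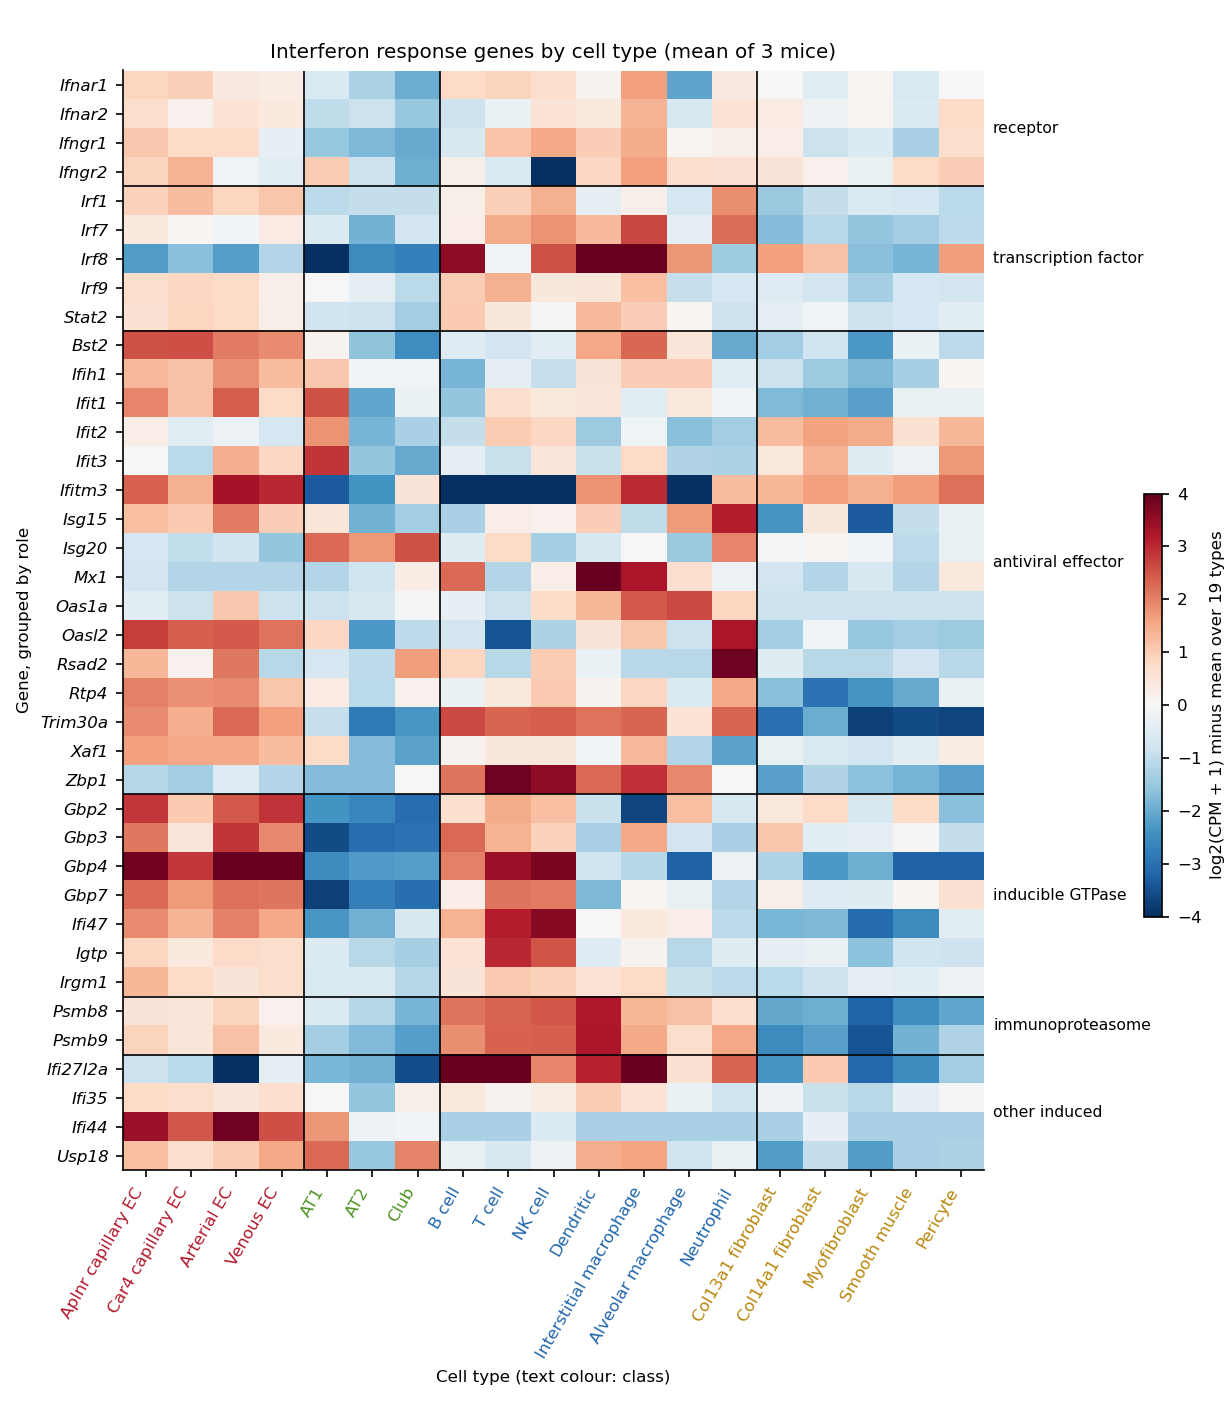
Levels of the 38 interferon response genes (rows, grouped by role) in 19 cell types (columns, grouped by class), as log2(CPM + 1) of the mean of 3 mice minus the gene's mean over the types. The inducible GTPases are high in the EC types and in the T-cell-like and NK-like cells. *Ifitm3* is high in arterial-like and venous-like ECs and in interstitial macrophage-like cells, and *Irf8* is highest in dendritic-like cells at 1229 CPM.

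The 4 receptor genes were lowest in epithelial cells in every pair of classes, which for *Ifngr2* did not hold for AT1-like cells taken alone. *Ifngr1*, the ligand-binding chain of the interferon gamma receptor, was at 282, 258, and 270 CPM in ECs of mice 2, 3, and 4. It was at 207, 166, and 177 CPM in immune cells, 115, 100, and 102 CPM in stromal cells, and 40.4, 42.5, and 45.1 CPM in epithelial cells. The classes did not overlap, and the log2 fold change of ECs against the mean of the other classes was 1.24 (SE 0.07, adjusted p = 1.34e-09, edgeR). *Ifnar2*, a chain of the type I receptor, was at 82.3, 81.9, and 81.4 CPM in ECs and 28.6, 29.7, and 26.4 CPM in epithelial cells. ECs were highest for *Ifnar2* in each pair as well. *Ifnar1*, its partner, was at 103, 119, and 110 CPM in ECs and 93.6, 111, and 105 CPM in immune cells, and these overlapped (log2 difference of -0.16, SE 0.10, adjusted p = 0.172, edgeR). In epithelial cells *Ifnar1* was at 21.4, 29.9, and 30.7 CPM, below every value of the other classes. *Ifngr2*, the signaling chain that joins IFNGR1, was at 76.7, 76.5, and 71.6 CPM in ECs and 29.2, 27.8, and 33.2 CPM in epithelial cells. Its log2 fold change of 0.19 in immune cells (SE 0.08, adjusted p = 0.0311, edgeR) lost its call under each left-out mouse, with DESeq2, without TMM, without the filter on low counts, with a stricter cell filter of 500 genes and 10% mitochondrial UMIs, and with classes taken from each cell's own marker UMIs (adjusted p of 0.0578 to 0.156).

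**Figure D2:**
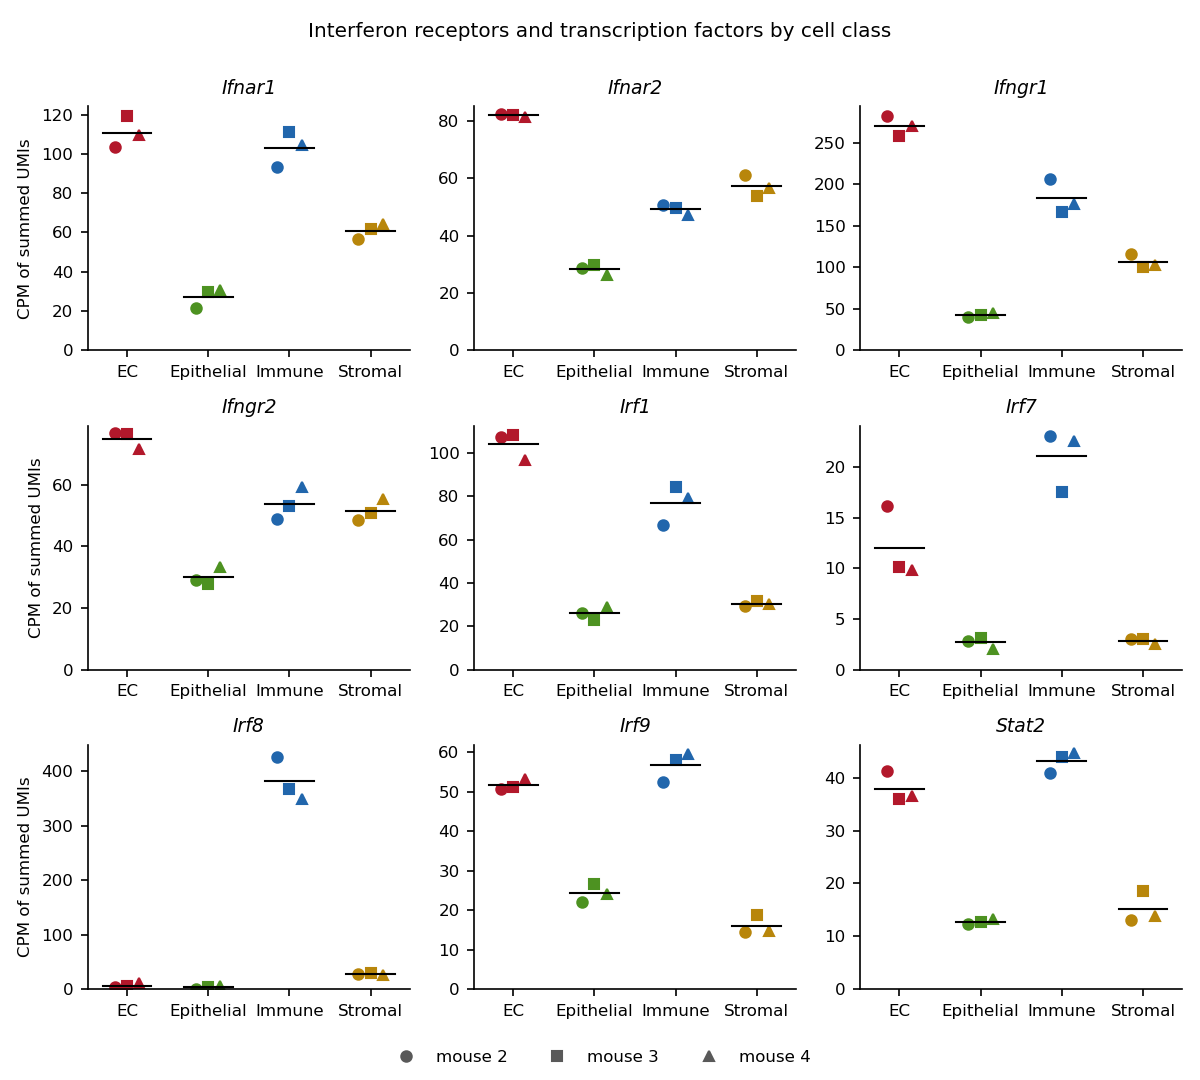
CPM of summed UMIs (y axis) of the 4 receptor genes and the 5 transcription factors in each class (x axis), with 1 symbol per mouse and the mean of 3 mice as a line. The 3 epithelial values lie below those of every other class for each receptor gene, and *Irf8* stands at 350 to 428 CPM in immune cells and 27.0 to 29.9 CPM in stromal cells.

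Within the types, the receptors followed different orders. *Ifngr1* was highest in NK-like cells, at 438, 417, and 415 CPM, and in interstitial macrophage-like cells, at 384, 433, and 436 CPM, and these overlapped. *Ifngr2* was not found in NK-like cells. There, 0 of 1085621 UMIs were *Ifngr2* in 159 cells, which allows up to 2.76 CPM and up to 1.89% of cells with a UMI, for counting error only. NK-like cells thus stood at both ends of the order for the 2 chains of the receptor, and the test called *Ifngr2* lower there (adjusted p = 2.05e-12, edgeR over 11783 genes). T-cell-like cells had *Ifngr2* at 19.1, 23.7, and 44.0 CPM, and AT1-like cells at 101, 80.0, and 85.7 CPM. The low *Ifngr2* level of the epithelial class thus did not hold for AT1-like cells. AT2-like cells, at a mean of 23.9 CPM, gave 17134318 of the 22429955 UMIs of that class. *Ifnar2* and *Ifngr2*, highest in ECs by class, had their highest type means in interstitial macrophage-like cells, at 144 and 139 CPM. Pericyte-like cells overlapped for both, venous-like ECs for *Ifnar2*, and *Car4*-type capillary ECs for *Ifngr2*. *Ifnar1* was highest in interstitial macrophage-like cells as well, at a mean of 206 CPM, where no other type overlapped. Its lowest mean was in another immune type, the alveolar macrophage-like cells, at 14.3 CPM.

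All 5 transcription factors were higher in immune cells than in the mean of the other classes, and 4 of them were also higher in ECs, where 37.6% and 29.7% of all genes were. *Stat2* and *Irf9*, parts of the complex that binds the ISRE, were called highest in immune cells, but the difference from ECs was small. *Irf9* was at 52.5, 58.0, and 59.6 CPM in immune cells and 50.7, 51.1, and 53.3 CPM in ECs, which overlapped, against 14.5, 18.7, and 14.8 CPM in stromal cells. *Stat2* was at 40.8, 43.9, and 44.6 CPM in immune cells and 41.3, 35.9, and 36.6 CPM in ECs. *Irf1*, an early target of interferon gamma, was at 108, 108, and 97.0 CPM in ECs and 67.0, 84.4, and 79.1 CPM in immune cells, with no overlap in CPM, yet the test did not separate them (log2 difference of 0.18, SE 0.09, adjusted p = 0.106, edgeR). The test used TMM scaling and the CPM did not, here and for *Ifnar1* above. Without TMM the median log2 difference of all genes between ECs and immune cells moved by 0.22. *Irf7*, which amplifies interferon production, was at 23.0, 17.5, and 22.5 CPM in immune cells and 2.08 to 3.16 CPM in epithelial and stromal cells.

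*Irf8*, which dendritic cells and B cells use in their development, was at 428, 369, and 350 CPM in immune cells, 3.52, 5.85, and 10.7 CPM in ECs, and 1.08, 3.53, and 6.34 CPM in epithelial cells (log2 fold change in immune cells, 5.47, SE 0.17, adjusted p = 4.11e-13, edgeR). Dendritic-like cells held 1424, 972, and 1290 CPM, above every other type, and B-cell-like cells 330, 411, and 336 CPM. It was also found in some stromal types. *Col13a1*-type fibroblasts held 78.1, 92.8, and 111 CPM, *Col14a1*-type fibroblasts 85.2, 50.3, and 64.5 CPM, and pericyte-like cells 132, 67.7, and 87.0 CPM, whereas myofibroblast-like cells held 5.54 to 10.4 CPM. The first 3 of these types overlapped with each other and lay above the myofibroblast-like cells, and *Irf8* was called higher than the mean of the other types in the *Col13a1*-type fibroblasts (log2 fold change 1.79, SE 0.29, adjusted p = 7.02e-07, edgeR). An *Irf8* UMI was found in 109 of 210 *Col13a1*-type fibroblasts, 43 of 133 pericyte-like cells, 32 of 100 *Col14a1*-type fibroblasts, and 45 of 804 myofibroblast-like cells, with at most 21 in 1 cell. The share with a UMI was 51.9% at a median of 9700 UMIs per cell in the *Col13a1*-type fibroblasts and 3.8% at 7749 UMIs in *Aplnr*-type capillary ECs. The 5 immune class markers together were at 1.63 to 43.1 CPM in the *Col13a1*-type fibroblasts, 7.91 to 160 CPM in the pericyte-like cells, and 2.80 to 92.7 CPM in the *Col14a1*-type fibroblasts, and their part in the *Irf8* levels was not tested. On the same strand, the *Gm20388* gene overlaps *Irf8*, *Gm21970* overlaps *Ifnar2*, and *Rnf31* overlaps *Irf9*.

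Of the 15 antiviral effector genes tested, 10 were higher and 2 lower in ECs, 8 higher and 4 lower in immune cells, 3 higher and 7 lower in epithelial cells, and 2 higher and 12 lower in stromal cells. Over all genes, 29.7% were higher and 30.1% lower in ECs, 37.6% and 38.4% in immune cells, 34.5% and 36.5% in epithelial cells, and 36.1% and 30.7% in stromal cells. *Bst2* encodes tetherin, which holds budding virus at the cell surface. It was at 347, 314, and 310 CPM in ECs and 70.5, 58.1, and 65.4 CPM in immune cells, with no epithelial or stromal value above 26.2 CPM (log2 fold change in ECs, 2.99, SE 0.08, adjusted p = 8.05e-14, edgeR). *Oasl2*, an oligoadenylate synthetase-like gene, had the same order, with 77.6, 54.6, and 66.4 CPM in ECs and 12.8, 11.9, and 19.3 CPM in immune cells. The lowest EC value was thus above every value of the other classes for both genes. *Trim30a*, a TRIM family gene, was called in both classes and was higher in immune cells, at 156, 159, and 161 CPM, than in ECs, at 108, 110, and 99.7 CPM.

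*Ifitm3*, which blocks the entry of enveloped virus from endosomes, was at 914, 819, and 741 CPM in ECs and 457, 373, and 387 CPM in stromal cells, with 135, 87.7, and 137 CPM in immune cells and 47.4, 46.0, and 39.7 CPM in epithelial cells. The 4 classes did not overlap, and the log2 fold change in stromal cells was 1.18 (SE 0.12, adjusted p = 5.81e-07, edgeR). The immune types differed widely for *Ifitm3*. Interstitial macrophage-like cells were at a mean of 1103 CPM, which overlapped with arterial-like ECs at 1426 CPM, and alveolar macrophage-like cells were at 1.71 CPM. *Ifit2*, which binds viral RNA, was at 18.0, 17.9, and 23.6 CPM in stromal cells and at no more than 8.58 CPM in any other class. By class this was the reverse of *Ifit1*, its neighbor in the same cluster of genes on chromosome 19. *Ifit1* was at 20.2, 21.5, and 18.3 CPM in ECs and no more than 2.21 CPM in stromal cells. By type the 2 genes were not opposed, since both had their highest mean in AT1-like cells, an epithelial type, at 29.15 CPM for *Ifit2* and 33.16 CPM for *Ifit1*. *Isg20*, a 3′ to 5′ exonuclease of viral RNA, was at 40.6, 32.3, and 38.6 CPM in epithelial cells and no more than 10.0 CPM in any other class (log2 fold change 2.79, SE 0.13, adjusted p = 2.97e-11, edgeR). By type it was not confined to epithelial cells. Neutrophil-like cells, an immune type, were at a mean of 38.2 CPM (SD 11.7) and overlapped with club-like cells, the highest type at 58.0 CPM. *Mx1*, an antiviral GTPase that is defective in the C57BL/6 strain, and *Zbp1*, a sensor of nucleic acid in the Z form, were found almost only in immune cells, at 9.38 to 12.5 CPM and 22.4 to 25.5 CPM. In the other classes they were at no more than 0.666 CPM and 1.76 CPM.

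The 7 inducible GTPases, which attack the vacuoles of intracellular microbes, were called higher in ECs and in immune cells and lower in epithelial cells, 7 of 7 each time. Over all genes, 29.7%, 37.6%, and 36.5% were called so in that order. In stromal cells 4 of the 7 were lower and 3 were not called, where 30.7% of all genes were lower. Their summed level was 528, 508, and 533 CPM in ECs, 201, 262, and 246 CPM in immune cells, 76.8, 79.4, and 67.0 CPM in stromal cells, and 23.5, 29.0, and 25.6 CPM in epithelial cells, with no overlap. *Gbp4*, a guanylate-binding protein gene, was at 153, 131, and 130 CPM in ECs and no more than 1.73 CPM in epithelial or stromal cells (log2 fold change in ECs, 4.94, SE 0.13, adjusted p = 1.13e-13, edgeR). *Gbp2* was at 73.5, 74.1, and 83.9 CPM in ECs and 16.0, 21.4, and 16.5 CPM in immune cells (log2 fold change in ECs, 3.37, SE 0.12, adjusted p = 2.04e-12, edgeR). *Gbp4* overlaps *Gbp8* and *Gbp9*, *Igtp* overlaps *Irgm2*, and *Ifi47* overlaps *Olfr56*, on the same strand. Close copies within the GTPase families can share reads, so single members are less certain than the sum. *Psmb8* and *Psmb9*, subunits of the immunoproteasome that cuts peptides for antigen presentation, were highest in immune cells and lowest in stromal cells. *Psmb9* was at 164, 133, and 140 CPM in immune cells, 65.6, 60.9, and 50.5 CPM in ECs, and 5.16, 5.01, and 4.10 CPM in stromal cells, and *Tap1* overlaps it on the other strand.

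The other 4 induced genes split by class. *Ifi44* was at 27.0, 25.0, and 20.5 CPM in ECs and 1.55, 1.86, and 1.96 CPM in epithelial cells, and immune and stromal cells each held 1 UMI over the 3 mice, so that its log2 fold change of 6.35 in ECs (SE 0.27, adjusted p = 2.17e-11, edgeR) rests on those near-zero values. *Ifi27l2a* was at 277, 209, and 244 CPM in immune cells and no more than 7.41 CPM in any other class (log2 fold change 5.88, SE 0.17, adjusted p = 1.04e-13, edgeR). *Usp18*, which removes ISG15 from proteins and damps the type I receptor, was called higher in ECs, epithelial cells, and immune cells, and was at 0.167, 0.193, and 0.788 CPM in stromal cells.

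Each of the 19 types was then compared with the mean of the others in 1 fit over 11783 genes. The types held from 372793 UMIs (interstitial macrophage-like) to 17134318 (AT2-like), and calls depend on UMIs too, so the counts do not rank types by level. The median log2 fold change of the 37 genes gave another order. It was 1.08 in interstitial macrophage-like, 1.07 in NK-like, 1.05 in arterial-like, 0.87 in *Aplnr*-type capillary, and 0.53 in B-cell-like cells, against -0.18 to 0.07 over all genes. The *Aplnr*-type capillary ECs, a broad type of alveolar capillary, had 29 of 37 genes called higher and 2 lower, against 31.0% and 13.1% of all genes. Arterial-like ECs had 23 higher (23.3% of all genes), *Car4*-type capillary ECs 20 (24.2%), and venous-like ECs 17 (22.4%). Among immune cells, the counts were 21 in B-cell-like (38.3%), 20 in NK-like (20.7%), 19 in dendritic-like (26.0%), 17 in T-cell-like (19.0%), 16 in interstitial macrophage-like (14.2%), and 16 in neutrophil-like cells (25.1%). Alveolar macrophage-like cells had 7 (17.2%), pericyte-like cells 7 (20.4%), and AT1-like cells 10 (30.5%), near the share of all genes. At the other end, 22 genes were lower in AT2-like cells (18.9% of all genes), 20 in myofibroblast-like cells (15.6%), and 19 in smooth muscle-like cells (13.8%), with 2, 2, and 4 higher (33.8%, 34.9%, and 31.8%). Club-like cells and AT1-like cells had 13 lower each (13.5% and 13.8%), and the *Col13a1*-type and *Col14a1*-type fibroblasts 12 each (12.6% and 10.1%). The lower counts of the EC and immune types were 2 in arterial-like (9.26% of all genes), 1 in *Car4*-type capillary (10.6%), and 2 in venous-like ECs (8.39%), 8 in B-cell-like (16.6%), 3 in T-cell-like (12.1%), 2 in NK-like (14.0%), 1 in dendritic-like (12.9%), 0 in interstitial macrophage-like (5.17%), 2 in neutrophil-like (21.1%), and 2 in alveolar macrophage-like cells (11.9%). In interstitial macrophage-like cells 1 gene was lower by DESeq2 and 1 at an unadjusted p under 0.05. Pericyte-like cells had 6 lower (9.39%), and the *Col13a1*-type fibroblasts, the *Col14a1*-type fibroblasts, and the club-like cells had 5 higher each (29.2%, 28.4%, and 31.9%). Single mice moved some of these counts. The higher count was 4 in alveolar macrophage-like cells without mouse 3 or mouse 4, 3 and 4 in pericyte-like cells without mouse 2 and mouse 4, and 1 in AT2-like cells without any 1 of the mice. The lower count was 12 in smooth muscle-like cells without mouse 2 or mouse 4, 7 in *Col13a1*-type fibroblasts without mouse 4, 6 in *Col14a1*-type fibroblasts without mouse 3, and 1 in *Aplnr*-type capillary ECs without mouse 2 or mouse 4.

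**Figure D3:**
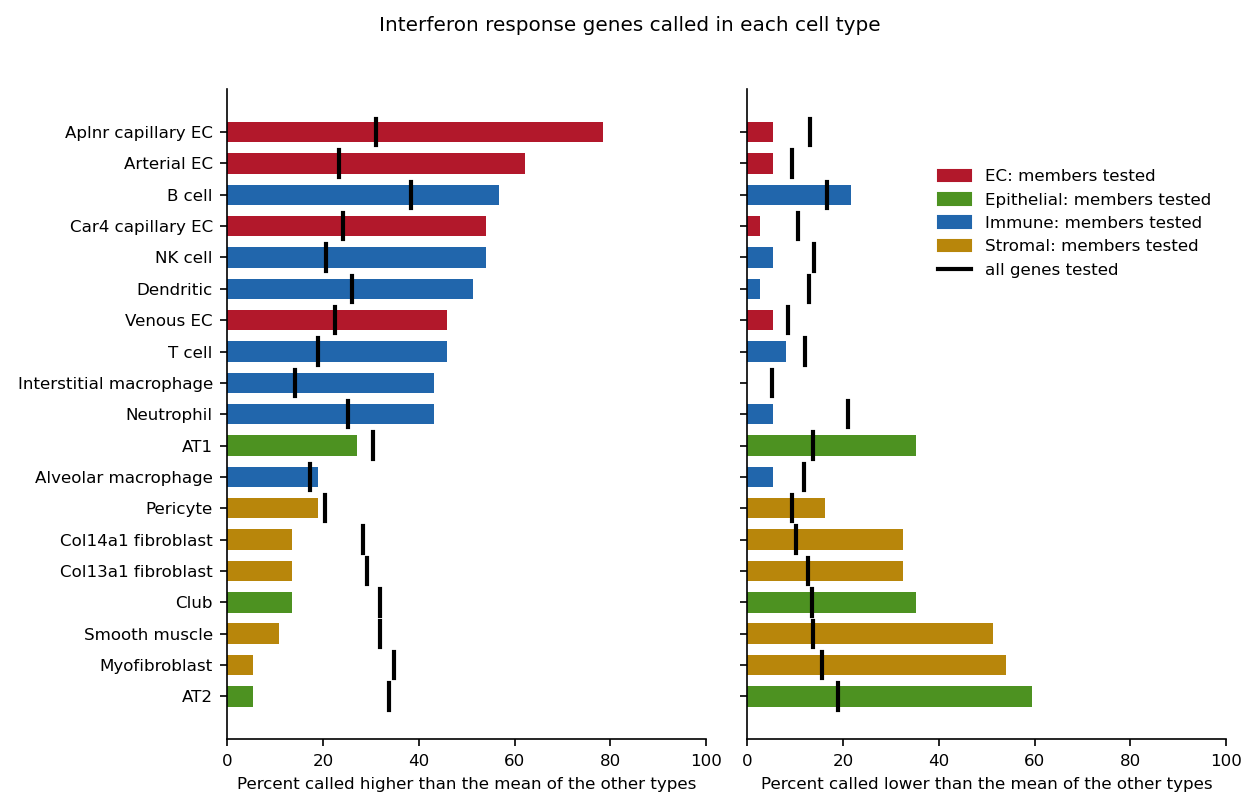
Percent of the 37 tested interferon response genes called higher (left) or lower (right) than the mean of the other types in each of 19 cell types, with the percent of all 11783 genes tested as a black mark. All 4 EC types exceed the mark for higher calls, with 29 of 37 genes in *Aplnr*-type capillary ECs, and AT2-like cells have 22 genes called lower.

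The EC types differed in single genes. *Ifitm3* was at 1496, 1438, and 1345 CPM in arterial-like ECs and 800, 686, and 663 CPM in *Aplnr*-type capillary ECs, with no overlap. Venous-like ECs held 1347, 1175, and 868 CPM. *Gbp4* was at 205, 246, and 157 CPM in venous-like ECs, 143, 196, and 141 CPM in arterial-like ECs, and 82.6, 55.0, and 60.9 CPM in *Car4*-type capillary ECs, so that the *Car4* type lay below the rest. *Bst2* had the reverse order, with 313, 332, and 436 CPM in the *Car4* type, 405, 349, and 312 CPM in the *Aplnr* type, and 227, 216, and 223 CPM in venous-like ECs. The *Car4* and *Aplnr* types overlapped for *Bst2*. Interstitial macrophage-like cells, an immune type at a mean of 298 CPM (SD 148), overlapped with the *Car4* type as well. *Ifit1* in arterial-like ECs was at 18.6, 56.9, and 15.6 CPM, where mouse 3 stood above the others, and the *Aplnr* type was at 22.6, 20.7, and 21.5 CPM.

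Immune types carried different members. The inducible GTPases summed to 510, 549, and 598 CPM in T-cell-like cells and 542, 537, and 619 CPM in NK-like cells, which overlapped with arterial-like ECs at 525, 653, and 529 CPM, while B-cell-like cells were at 184, 265, and 236 CPM and neutrophil-like cells at 40.4, 49.2, and 70.4 CPM. All 7 were called higher in T-cell-like, NK-like, and B-cell-like cells, where 19.0%, 20.7%, and 38.3% of all genes were. The same held in *Aplnr*-type capillary ECs (31.0% of all genes). In T-cell-like cells *Oasl2* was at 0 UMIs, which allows up to 3.52 CPM for counting error, while *Ifi27l2a* was at 765, 613, and 572 CPM, above every other type. *Psmb8* was at 655, 546, and 582 CPM in dendritic-like cells and 372, 326, and 377 CPM in NK-like cells, and *Mx1* at 34.4, 33.2, and 55.0 CPM in dendritic-like cells against 8.85, 10.1, and 10.6 CPM in B-cell-like cells. Dendritic-like cells were thus above B-cell-like cells for *Mx1* in all 3 mice.

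Neutrophil-like cells differed from T-cell-like and NK-like cells in makeup. *Isg15*, a ubiquitin-like protein that is joined to others, was at 153, 118, and 76.0 CPM, above the 59.9, 56.9, and 48.8 CPM of arterial-like ECs. *Oasl2* was at 84.8, 86.6, and 146 CPM, and *Rsad2*, the antiviral radical enzyme viperin, at 32.3, 11.8, and 47.8 CPM, while none of the 7 inducible GTPases was called in either direction (0 by edgeR, 0 by DESeq2, and 0 at an unadjusted p under 0.05). The median log2 fold change of these 7 was -0.348, against -0.3495 over all genes, of which 25.1% were called higher and 21.1% lower. Few calls of these 7 were not particular to neutrophil-like cells. In dendritic-like cells 1 was higher and 1 lower (26.0% and 12.9% of all genes). In interstitial and alveolar macrophage-like cells 1 was higher each (14.2% and 17.2%) and 0 lower (5.17% and 11.9%). *Oasl2* overlapped between neutrophil-like cells and *Aplnr*-type capillary ECs. The log2 fold change of *Isg15* in neutrophil-like cells was 4.23 (SE 0.28, adjusted p = 1.91e-19, edgeR), in a contrast whose median over all genes was -0.35. Without TMM scaling that median moved by -0.71, and the count of genes called in neutrophil-like cells went from 16 higher and 2 lower to 15 higher and 8 lower.

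Among epithelial cells, AT1-like and AT2-like cells differed. AT1 cells are the flat cells of gas exchange, and AT2 cells make surfactant. This pair was compared after the data had been seen. Of 37 genes, 15 were higher and 2 lower in AT1-like than in AT2-like cells, where 17.8% and 16.8% of all genes were. The higher count was 12 to 13 with 1 mouse left out, and the lower count was 1 without mouse 4. *Ifit3*, an RNA-binding partner of IFIT1, was at 40.8, 46.0, and 47.0 CPM in AT1-like cells and 0.775, 0.938, and 1.71 CPM in AT2-like cells (log2 difference 4.91, SE 0.43, adjusted p = 5.35e-14, edgeR). *Ifit1* was at 41.9, 28.0, and 29.6 CPM against 0.465, 0.469, and 0.156 CPM (log2 difference 5.99, SE 0.67, adjusted p = 1.27e-10, edgeR). AT1-like cells thus stood above AT2-like cells in every mouse for both genes. *Ifit2* was at 32.2, 11.998, and 43.2 CPM against 1.24, 1.64, and 1.25 CPM, and *Usp18* at 29.0, 19.997, and 15.9 CPM against 1.09, 0.469, and 0.467 CPM. For *Ifit1*, *Ifit2*, *Ifit3*, and *Usp18*, AT1-like cells had the highest mean of all 19 types, with no type overlapping for *Ifit3* and arterial-like ECs overlapping for *Ifit1*. For *Ifit2*, 8 types overlapped with AT1-like cells, among them the *Col14a1*-type fibroblasts at a mean of 25.0 CPM against 29.1 CPM. For *Usp18*, club-like, interstitial macrophage-like, and dendritic-like cells overlapped.

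**Figure D4:**
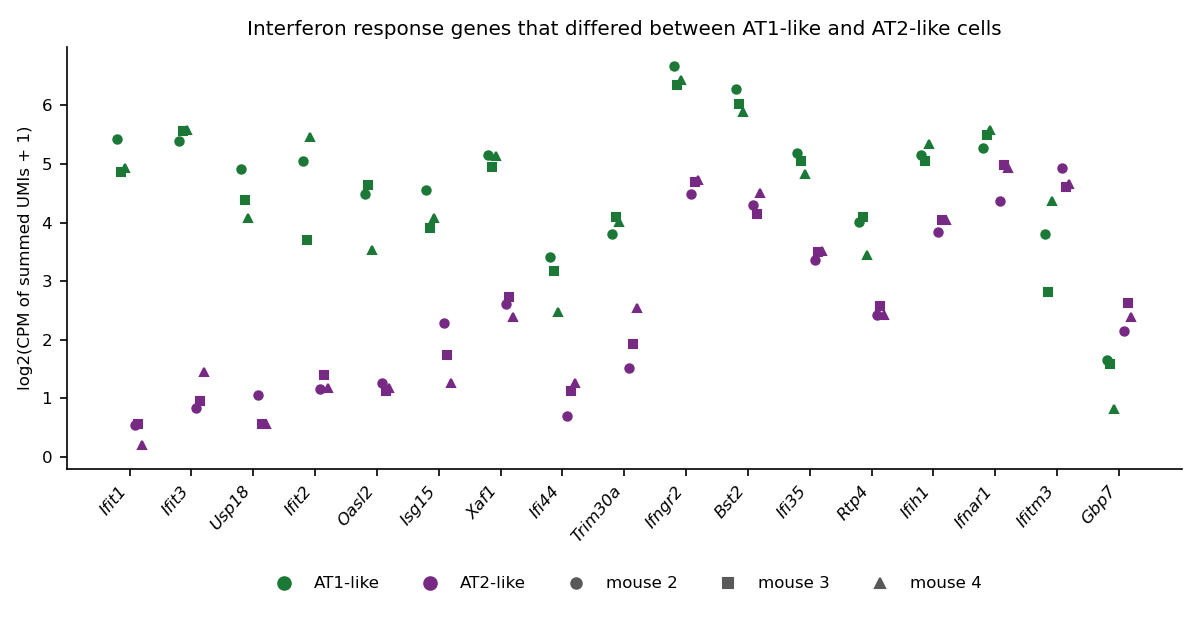
Levels, as log2(CPM + 1), of the 17 interferon response genes that differed between AT1-like and AT2-like cells, with 1 symbol per mouse. The genes run from the largest excess in AT1-like cells, *Ifit1*, to the 2 that were lower there, *Ifitm3* and *Gbp7*.

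The remaining genes higher in AT1-like cells were *Oasl2*, *Isg15*, *Xaf1*, *Ifi44*, *Trim30a*, *Ifngr2*, *Bst2*, *Ifi35*, *Rtp4*, *Ifih1*, and *Ifnar1*, with log2 differences from 3.40 to 0.48. *Xaf1*, an interferon-induced gene that promotes cell death, was at 34.4, 29.995, and 34.1 CPM against 5.12, 5.63, and 4.21 CPM. None of the 7 inducible GTPases was higher (0 by edgeR, 0 by DESeq2, and 0 at an unadjusted p under 0.05), where 17.8% of all genes were. *Gbp7* was lower, at a mean of 1.64 CPM against 4.26 CPM, where 16.8% of all genes were. *Gbp2*, *Gbp3*, *Gbp4*, and *Ifi47* had means of at most 2.05 CPM in both types, too low for a difference to be seen well. *Ifitm3* was lower too, at 12.9, 6.00, and 19.7 CPM against 29.6, 23.4, and 24.1 CPM. The 5 EC class markers were at 14.0, 11.998, and 80.4 CPM in AT1-like cells and 32.1, 21.6, and 90.7 CPM in AT2-like cells, and the immune class markers at 9.67, 6.00, and 6.83 CPM and 15.04, 64.5, and 32.6 CPM, so neither list was higher in AT1-like cells in any mouse. The 5 stromal class markers were at 221, 6.00, and 20.5 CPM in AT1-like cells and 81.5, 88.9, and 146 CPM in AT2-like cells, higher in AT1-like cells in mouse 2, and their part in the difference was not tested. With the cells marked as doublets left out, 14 genes were called higher.

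For 15 genes that type I interferon induces, *Ifit1*, *Ifit2*, *Ifit3*, *Isg15*, *Rsad2*, *Usp18*, *Oasl2*, *Oas1a*, *Mx1*, *Ifi44*, *Rtp4*, *Irf7*, *Zbp1*, *Xaf1*, and *Ifih1*, the UMIs were also summed. Arterial-like ECs held 413, 457, and 303 CPM, neutrophil-like cells 380, 330, and 394 CPM, and *Aplnr*-type capillary ECs 391, 291, and 346 CPM, and these overlapped. AT1-like cells held 290, 242, and 251 CPM and AT2-like cells 35.3, 36.8, and 34.4 CPM, the lowest of the 19 types. Interstitial macrophage-like cells held 601, 119, and 156 CPM, where mouse 2 stood apart, and without it their mean was 138 CPM in place of 292.

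**Figure D5:**
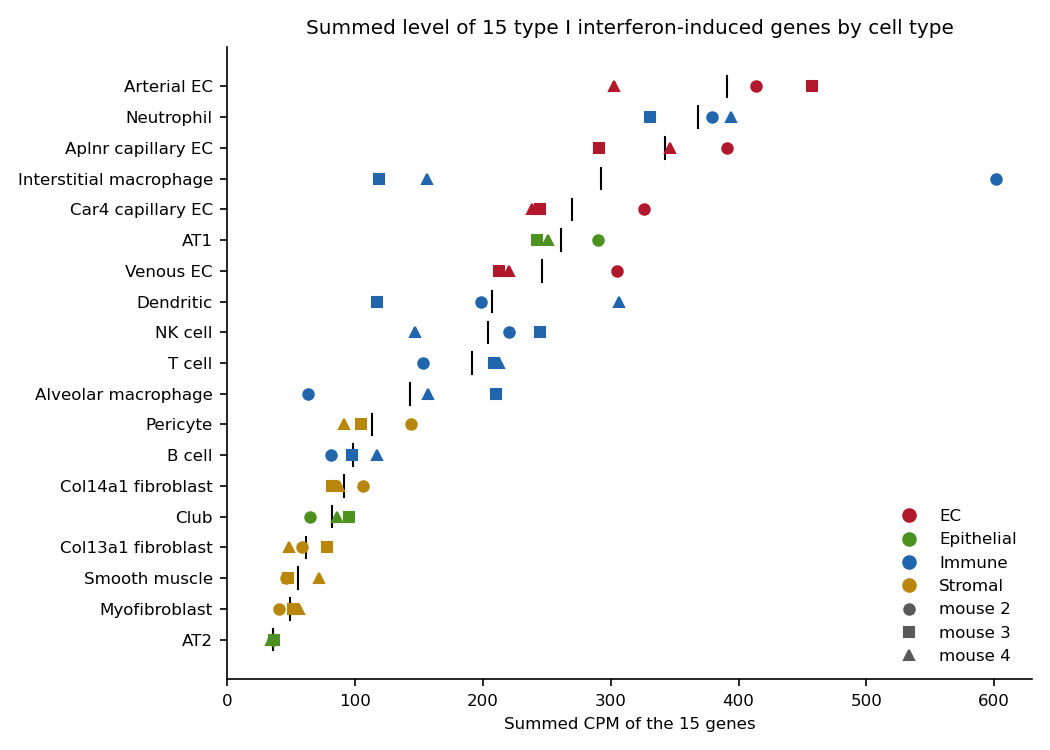
Summed CPM (x axis) of 15 type I interferon-induced genes in each of 19 cell types (y axis), with 1 symbol per mouse and the mean as a line. AT1-like cells lie at 242 to 290 CPM among the EC types, AT2-like cells at 34.4 to 36.8 CPM, and mouse 2 stands at 601 CPM in interstitial macrophage-like cells.

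A few cells held a large share of the sum. In *Aplnr*-type capillary ECs of mouse 3, 67 of 379 UMIs were in 1 cell, and in arterial-like ECs of mouse 3, 51 of 201. The 5% of cells with the most UMIs of these genes held 17.2% to 24.8% of them in AT1-like cells, 24.2% to 39.8% in *Aplnr*-type capillary ECs, 22.6% to 42.8% in arterial-like ECs, 39.4% to 47.9% in neutrophil-like cells, and 47.3% to 60.4% in B-cell-like cells. In alveolar macrophage-like cells they held 37.5% in mouse 2, with 8 UMIs in all, 73.2% in mouse 3, and 75% in mouse 4. The types differed in UMIs of these genes per cell, as with 366 in 883 B-cell-like cells of mouse 3 and 331 in 80 AT1-like cells of mouse 4. Sparse counts alone raise the share of the top 5%, and the share due to counting was not tested. At least 3 of the 15 genes were found in 45.1% ± 5.78 of AT1-like cells (SD, n = 3 mice), 34.5% ± 1.61 of arterial-like ECs, 32.2% ± 4.35 of *Aplnr*-type capillary ECs, 2.81% ± 0.116 of neutrophil-like cells, and 1.89% ± 0.860 of AT2-like cells, at median depths of 13461.5, 6879, 7749.5, 2127, and 16194 UMIs per cell. With every cell thinned to 1000 UMIs these shares fell to 2.09%, 4.16%, 0.807%, 1.30%, and 0%. The share with at least 1 of the 15 genes at that depth was 26.4% ± 3.68 in *Aplnr*-type capillary ECs, 23.1% ± 4.75 in AT1-like cells, 22.9% ± 5.69 in neutrophil-like cells, 22.4% ± 4.34 in arterial-like ECs, and 3.34% ± 0.495 in AT2-like cells. Thinning left out 17, 30, 53, 4, and 2 shallower cells of these types. AT2-like cells, the deepest of the 5 types, thus had the lowest share at equal depth.

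The interferon genes themselves were nearly absent. Of 20 type I, II, and III interferon genes, 18 had 0 of 66547233 UMIs, which allows up to 0.0451 CPM for each, for counting error only. *Ifng*, interferon gamma, had 51 UMIs, of which 43 were in NK-like cells, at 31.5, 41.7, and 45.3 CPM, and *Ifna2* had 1. The receptor of type III interferon pairs IFNLR1 with IL10RB. *Ifnlr1* was at 10.2, 10.6, and 13.1 CPM in epithelial cells and no more than 2.66 CPM in any other class (log2 fold change 4.83, SE 0.35, adjusted p = 8.38e-09, edgeR). The 4 type I and II receptor genes were lowest in the epithelial class, though *Ifngr2* was not low in AT1-like cells. Within this class, AT1-like cells held *Ifnlr1* at 26.9, 10.0, and 26.5 CPM and AT2-like cells at 7.91, 11.3, and 11.2 CPM, which overlapped.

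Of 89 other genes of the pathway listed, 88 were found and 65 could be tested by class. In ECs 40 were higher and 7 lower, in immune cells 54 and 4, in epithelial cells 6 and 40, and in stromal cells 5 and 47, against the shares of all genes given above. All 9 signaling genes were higher in immune cells. Of 6 other inducible GTPase genes tested, 6 were higher in ECs, but only 3 were higher and 1 lower in immune cells. In epithelial cells 5 of these were lower, and in stromal cells 1 was higher and 3 were lower. Of the 10 antigen presentation genes, 10 were higher in immune cells and 7 in ECs, and 10 were lower in stromal cells. The 5 genes that sense nucleic acid included 4 higher in ECs and 4 in immune cells, and 5 lower in epithelial cells. Between AT1-like and AT2-like cells, 60 of these other genes could be tested, and 11 were higher and 6 lower in AT1-like cells. Over all genes 17.8% were higher and 16.8% lower, so the higher count was near the share of all genes. Of the 11, *Sp100*, a nuclear body protein, was at a mean of 42.9 CPM against 4.65 CPM, and *Ddx58*, which encodes the RNA sensor RIG-I, at 67.8 CPM against 21.3 CPM, both higher in every mouse (log2 differences 2.92 and 1.46, SE 0.30 and 0.16, adjusted p = 1.38e-11 and 4.48e-11, edgeR). Among the 6 lower genes were *Ly6e* and *Ifitm2*, with log2 differences of -1.41 and -0.965.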

How the data were processed

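scRNA-Seq libraries (10x v3) of 3 mice were analyzed. Per the submitters' processing notes, the authors used Cell Ranger 3.0.2 and mm10. The deposited values are raw UMI counts for each gene in each cell, with no normalization. Reads lie near the 3′ end of transcripts, so levels of different genes were not compared. A cell was kept when it had 200 genes or more and no more than 20% of its UMIs from mitochondrial genes, and 2002 cells were left out. The 3 libraries were joined and normalized by SCTransform (sctransform 0.4.2 in Seurat 5.3.0 under R 4.3.3), and clusters were found from 30 principal components with the resolution set to 0.8. Clusters were named from marker lists by mean log2 fold, and the naming thresholds were chosen with the clusters in view. Names come from RNA of the same cells. The members and lists were chosen with earlier results of these data known. Genes named in the text are the 4 receptors, the 5 transcription factors, and up to 6 genes per class with the largest positive called fold change, and other genes were named after their values were seen.

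Doublets were scored with simulated doublets (scanpy 1.11.5, Python 3.11.15). The automatic threshold marked under 0.5% of cells, so the top scores were taken as doublets at a rate of 0.8% per 1000 cells, and these cells were kept in the main analysis.

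The counts of each mouse were added up within each class (12 sums) or type (57 sums), and edgeR 4.0.16 was run on these sums (TMM, filterByExpr, quasi-likelihood test, Benjamini-Hochberg adjustment, threshold 0.05). A fold change is against the mean of the log2 levels of the other groups. The SE given with edgeR is the size of the log2 fold change divided by the square root of the test's F value. It is only a rough guide where a group holds few UMIs, as for *Ifi44*. DESeq2 1.42.0, no TMM, no filter, the mouse as a block, each mouse left out, other cell filters, doublets removed, other clustering settings, and classes from each cell's own UMIs were alternatives. Sums with 1 number share their animal. In 18 pairs of such sums the deviations from the class means had r of 0.0656 to 0.293, so the pairing rests on the animal. The libraries were not copies of each other, with chi-square values over genes of 9.12 to 38.1 per degree of freedom. The tests were checked on simulated sums in which 200 genes changed by a log2 fold of 2 in the target group and all others were equal. In the real contrasts far more genes differed, so this check does not cover the scaling between unlike cell classes. Promoters are from RefSeq on GRCm38.p6, and overlaps of genes from GENCODE M21. Intervals and limits cover counting error only. A gene of the pathway is not reported here.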

Additional observations from a re-analysis of the deposited data

Results flagged for a closer look

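Cells of the unnamed clusters entered no comparison, and in 2 of these clusters the pooled level of a gene had a 95% counting interval wholly above its highest mean among the 19 named types. An unnamed cluster led by the platelet gene *Pf4*, with 31 cells whose median was 711 UMIs, held 97 UMIs of *Igtp*, of which 78 were in mouse 2, 4 in mouse 3, and 15 in mouse 4. They lay in 11 cells, and 1 cell held 77. The pooled level was 1134 CPM (95% interval 919.4 to 1383, exact Poisson), against 83.74 CPM in T-cell-like cells. The same cluster held 28 UMIs of *Ifit1* (327.3 CPM, 217.5 to 473, against 33.16 CPM in AT1-like cells) and 14 UMIs of *Ifit2* (163.6 CPM, 89.46 to 274.5, against 29.15 CPM in AT1-like cells), each in a single cell of mouse 2. *Rtp4* stood out in the same way in another unnamed cluster, where 453 cells had 843 UMIs as their median. It had 48 UMIs there, 22, 6, and 20 in mice 2, 3, and 4, in 38 cells with at most 3 in 1 cell, or 106.5 CPM (78.55 to 141.3) against 46.48 CPM in *Aplnr*-type capillary ECs. These intervals cover counting error only, and no test between mice was run.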

How the results depend on the processing

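Of 1582 values recomputed under the alternatives for 147 results, 1473 had the same call or stayed within 1.5 times of the count reported. The count of genes called higher in ECs was 30 under each alternative run, and in immune cells it was 24 to 28. With the mouse as a block the counts in ECs and immune cells were 30 and 28, and the lower count in *Car4*-type capillary ECs went from 1 to 2. Under the block no other count moved by more than 1.5 times, and no single gene followed under the alternatives changed its call.

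Counts of genes called lower were among the values that changed. For ECs (4) the lower count was 2 with all deposited cells and 1 with doublets removed. For immune cells (5) it was 3 with the stricter cell filter (500 genes or more, mitochondrial UMIs of 10% or less). With DESeq2 the lower counts were 4 for AT1-like against AT2-like cells (2), 3 in dendritic-like (1), 1 in interstitial macrophage-like (0), 5 in T-cell-like (3), and 1 in venous-like cells (2). Without TMM they were 1 for AT1-like against AT2-like cells, 1 in *Aplnr*-type capillary ECs (2), 2 in dendritic-like, 8 in neutrophil-like (2), and 1 in venous-like cells. Without the filter on low counts they were 2 in dendritic-like, 1 in interstitial macrophage-like, and 4 in NK-like cells (2). With doublets left out they were 0 in *Car4*-type capillary ECs and 1 in venous-like ECs. The higher count in AT2-like cells (2) was 1 with DESeq2, without TMM, and with doublets left out. With classes from each cell's own UMIs, 1 gene was lowest in immune cells in place of 0.

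With 1 mouse left out, the lower counts ran from 3 to 4 in immune cells, 1 to 3 for AT1-like against AT2-like cells, 1 to 2 in *Aplnr*-type capillary ECs, 0 to 2 in arterial-like ECs (2), 5 to 7 in B-cell-like cells (8), 0 to 1 in *Car4*-type capillary ECs, 7 to 9 in *Col13a1*-type fibroblasts (12), and 6 to 10 in *Col14a1*-type fibroblasts (12). They ran from 1 to 4 in dendritic-like, 1 to 2 in NK-like, 1 to 2 in neutrophil-like, 12 to 15 in smooth muscle-like (19), 1 to 2 in T-cell-like, and 0 to 2 in venous-like cells. The higher counts ran from 1 to 1 in AT2-like, 4 to 6 in alveolar macrophage-like (7), and 3 to 6 in pericyte-like cells (7), and 0 to 1 genes were lowest in ECs in each pair of classes.

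The sign of *Ifnar2* in immune cells was not fixed. Its log2 fold change was 0.0041 (adjusted p = 1, edgeR), and it was -0.0291 with DESeq2, -0.0472 without TMM, -0.0043 without the filter on low counts, -0.0251 with all deposited cells, -0.0161 with doublets removed, -0.0026 at resolution 0.4, -0.0147 with log-normalization, and -0.0096 with classes from own UMIs. With 1 mouse left out it ran from -0.0162, without mouse 3, to 0.0047. With the stricter cell filter it was 0.22 and was called. *Ifngr2* in stromal cells was at 0.0591 without TMM, and *Irf8* in stromal cells was at -0.19 with all deposited cells in place of 0.27, which was not called, and it was called higher without mouse 4 (0.77) and with classes from own UMIs (0.80). *Irf8* in ECs lost its call with all deposited cells (-1.02) and with doublets removed (-0.72), and *Ifit3* in epithelial cells lost its call without TMM (0.24), without mouse 2 (0.58), without mouse 4 (0.37), with the stricter cell filter (0.55), and with log-normalization (0.54). The cause of these changes was not tested. Omitting TMM moved the median log2 fold change of all genes by 0.28 for ECs, -0.36 for epithelial, 0.13 for stromal, and -0.05 for immune cells, and by -0.71 for neutrophil-like cells. Depth limits genes with few UMIs, such as *Oas1a* with 35 in all, and the shares of cells with at least 3 induced genes, which fell to at most 4.16% in each of the 19 types at 1000 UMIs per cell.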
